A study of Mus musculus with 9 samples.

Results

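Hippocampal gene expression was compared between mice that overexpress the ATPase inhibitory factor 1 (IF1-TG, 3 arrays) and control mice (CRL, 3 arrays), which are 6 of the 9 arrays of the series. The arrays were taken by their genotype labels, and every probe that is not a control spot was considered. All animals were male C57BL/6J mice aged 9 months, with 1 hippocampal RNA sample per array, and the other 3 arrays came from mice with a neuronal knockout of IF1 (IF1-KO). The labels give the genotype of the CRL arrays only as control, so whether these mice carried a driver transgene without its partner is not stated. In the study's methods, IF1-TG mice carry a human IF1 sequence under a tetracycline-responsive promoter, switched on by a transactivator (tTA) under the Camk2a promoter, so the transgene is active mainly in forebrain excitatory neurons while the arrays read RNA of the whole tissue. The parental lines had a mixed C57BL/6 and CBA origin before they were kept on C57BL/6J. In whole tissue, fewer cells of a type and less RNA per cell cannot be told apart. The labels do not say whether animals were littermates. Each P value sets a difference against the spread between samples of a genotype, pooled over all 9 arrays.

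IF1, encoded by Atpif1 (now Atp5if1), is a small protein of the mitochondrial matrix that binds the catalytic part of the ATP synthase and inhibits it. In neurons the ATP synthase supplies most of the energy used for ion pumping and synaptic transmission, and inhibition of the enzyme raises the inner membrane potential and the production of reactive oxygen species that can act as signals. The hippocampus holds pyramidal neurons of the CA fields, granule neurons of the dentate gyrus, interneurons and glia, and is needed for spatial and episodic memory.

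The signal of a gene is given on the log2 scale as its processed intensity over the array's own 75th percentile, so that 0 equals the percentile, and a gene is represented by its brightest probe. A probe was used when some genotype had it well above background on each of its 3 arrays, which 27994 of 39429 probes met, with 21907 gene names. The arrays shared 3 slides unevenly. Slide 1 held IF1-TG replicates 1 and 2 and nothing else. Slide 2 held IF1-TG replicate 3 beside CRL replicates 1 and 2 and IF1-KO replicate 1, and slide 3 held CRL replicate 3 beside IF1-KO replicates 2 and 3. Differences between IF1-TG replicates 1 and 2 and the CRL arrays therefore cannot be told apart from differences between slides. The only comparison of IF1-TG with CRL within a slide is that of IF1-TG replicate 3 with CRL replicates 1 and 2. The share of probes well above background was 66.8% to 69.7% on the IF1-TG arrays and 72.4% to 74.9% on the CRL arrays, without overlap. Markers of the labelled tissue were present, and all 19 listed genes of CA1 and CA2 pyramidal neurons, 18 of 20 of CA3 and 22 of 23 of the dentate gyrus were well above background on all 6 arrays. Tissue next to the hippocampus differed between single animals. Averaged over the choroid plexus and ependyma list, IF1-TG replicate 1 lay 2.33 and CRL replicate 2 lay 1.42 above the mean of the CRL arrays on the log2 scale, while the other 4 arrays lay between -1.02 and -0.49.

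The endogenous gene of the overexpressed protein was read first. The signal of Atpif1 (mm9, chromosome 4, 132086507 to 132086566) was 6.43, 6.39 and 6.51 on the IF1-TG arrays and 6.32, 6.34 and 6.19 on the CRL arrays. The 3 IF1-TG values lay above the 3 CRL values, with SDs of 0.062 and 0.083 (n = 3 each). The log2 difference was 0.16 (SE 0.27, limma unadjusted P = 0.57), with an error that also holds the spread of the arrays labelled IF1-KO, at 6.44, 5.20 and 5.53. The array labelled IF1-KO replicate 1 thus lay above every CRL array, against its label, and values of this genotype are given below as those of the arrays so labelled. In a limma fit of the 6 IF1-TG and CRL arrays alone the SE was 0.12 and the unadjusted P value 0.22. The transgene is of human sequence, and whether its transcript hybridizes to this mouse probe was not tested, so the probe does not check the labels.

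Between IF1-TG and CRL mice, 945 of 21907 genes (4.31%) reached a fold change of 1.5 with an unadjusted P value below 0.05 in limma, the thresholds of the study's methods, and are referred to as called. Of these, 454 genes (2.07%) were higher and 491 (2.24%) lower in IF1-TG mice. By unadjusted P value alone, 1767 genes passed, whereas 0 genes did once the limma P values had been adjusted by Benjamini and Hochberg's method, with 0.156 as the smallest adjusted P value of a brightest probe. The 3 IF1-TG arrays lay entirely above or below the 3 CRL arrays in 2574 genes (11.7%), and in 632 of the 945 called genes. The median log2 difference over all genes was -0.000568. All 454 genes called higher and 473 of the 491 called lower kept their sign within slide 2, where IF1-TG replicate 3 can be set against CRL replicates 1 and 2, although these arrays also entered the call, and 703 of the 945 reached a fold of 1.5 there. Without IF1-TG replicate 3, which leaves only the slide 1 arrays for this genotype, 1242 genes were called and 24.6% of them were higher in IF1-TG mice, against 48% with all arrays. Without IF1-TG replicate 2, 1469 genes were called. Omitting IF1-KO replicate 1, which enters only the error, gave 908 called genes, 845 of them among the 945.

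Genes called higher and lower differed in brightness. Genes called higher had a median signal of -3.12 and 404 of 454 were well above background on all 6 arrays, while genes called lower had a median signal of -5.30 and 243 of 491 were. In all, 145 of the genes called lower were well above background on no IF1-TG array, which moves with the smaller share of probes above background on those arrays, and its part in these calls was not tested. Among the 19832 genes well above background on all 6 arrays, 3.26% were called, 2.04% higher and 1.23% lower.

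**Figure D1:**
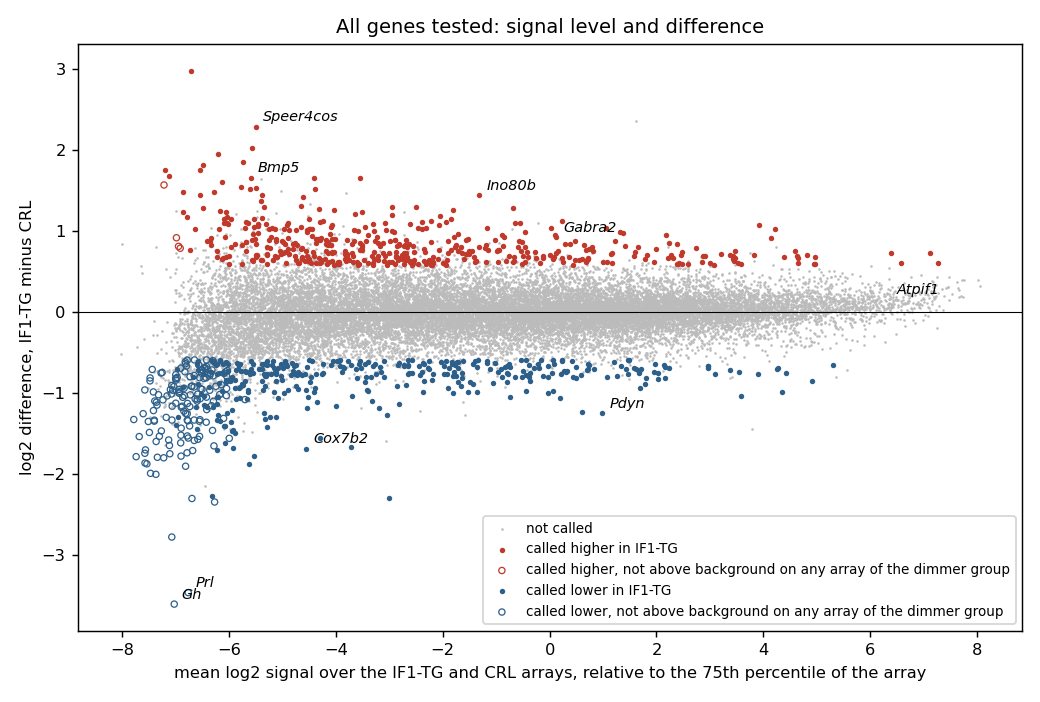
Each point is 1 of the 21907 genes, with its mean log2 signal over the 6 arrays, scaled to each array's 75th percentile, on the horizontal axis and the log2 difference of IF1-TG minus CRL on the vertical axis. Red and blue points are the 454 genes called higher and the 491 called lower, and the open circles, for which the dimmer group never rose above background, gather at the dim end on the lower side.

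Among genes well above background on all 6 arrays, with groups that did not overlap and a fold of 1.5 within slide 2, the 12 largest increases and 12 largest decreases were ranked, a ranking added after the values had been seen. The increases were led by Bmp5, a secreted bone morphogenetic protein, whose signal was -5.02, -3.99 and -5.27 on the IF1-TG arrays and -6.79, -5.82 and -6.65 on the CRL arrays, a log2 difference of 1.66 (SE 0.37) that was 0.60 under normexp with quantile normalization. Sarm1, the NAD+ hydrolase that executes axon degeneration, followed with 1.53 (SE 0.58), a value raised most by 1 array. IF1-TG replicate 3 was at -3.09 while replicates 1 and 2, at -5.48 and -5.59, lay nearer to the CRL arrays at -6.33, -6.39 and -6.03. Without replicate 3 the difference was 0.715 and still called, and the call was lost in 3 of 21 alternatives. Ino80b codes for a subunit of the INO80 chromatin remodelling complex. Its signal was -0.55, -0.76 and -0.46 in IF1-TG mice and -2.57, -1.55 and -1.98 in CRL mice, and the log2 difference was 1.45 (SE 0.27). Every IF1-TG array lay above the highest CRL array.

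Tbx2, a T-box transcription factor, rose by 1.31 (SE 0.40), although CRL replicate 3 at -4.48 came close to IF1-TG replicate 2 at -4.30. Limk2, a kinase that inactivates the actin-severing protein cofilin, was at -1.54, -2.05 and -1.39 in IF1-TG mice against -2.82, -3.34 and -2.20 in CRL mice, a log2 difference of 1.13 (SE 0.33). Shc4, an adaptor of receptor tyrosine kinases, gave 1.29 (SE 0.40), but the groups barely separated, with IF1-TG replicate 2 at -0.982 and CRL replicate 2 at -0.999, and its other probe gave -0.52 (SE 0.21). Fam133b gave 1.26 (SE 0.21) at its brightest probe and -0.29 (SE 0.16) at the other. Sync, which codes for the intermediate filament protein syncoilin, gave 1.09 (SE 0.30). Gm4419, A230006K03Rik, Gm5858 and 4930447F24Rik, which have no assigned protein function, completed the increases with 1.10 to 1.15. Of these, 4930447F24Rik was at -3.56 on IF1-TG replicate 3 and at -5.30 and -5.44 on the other IF1-TG arrays, and without replicate 3 its difference was 0.49 and no longer called. Its call and that of Gm5858 were each lost in 8 of 21 alternatives.

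The decreases were led by Apold1, an immediate early gene of endothelial cells, with -5.00, -4.07 and -4.55 on the IF1-TG arrays and -3.30, -1.82 and -3.52 on the CRL arrays, a log2 difference of -1.66 (SE 0.52), while its other probe gave -0.66 (SE 0.44) with overlapping groups and was not called. The CRL array with the highest value, replicate 2, also had the highest mean over the immediate early gene list, 0.52 above the CRL mean. Without that array the difference was -1.13 and still called, and without it and IF1-TG replicate 1 it was -0.90 and not called. Ptgr1, an enzyme that inactivates prostaglandins and leukotriene B4, fell by 1.27 (SE 0.27), with values of -3.70, -3.88 and -3.46 against -2.03, -2.63 and -2.58. Pdyn, the precursor of the dynorphin opioid peptides, fell by 1.25 (SE 0.27). Olfm3, a secreted glycoprotein of the olfactomedin family, was at -1.27, -1.58 and -0.91 in IF1-TG mice and 0.10, -0.47 and -0.26 in CRL mice, and fell by 1.05 (SE 0.20). St6gal2, a sialyltransferase, gave -1.14 (SE 0.40), and Tmem181a, a membrane protein, -1.23 (SE 0.38).

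Fastkd1, a mitochondrial RNA-binding protein, had a mean of -2.30 (SD 0.39) in IF1-TG mice and -1.30 (SD 0.059) in CRL mice (n = 3 each) and fell by 0.9997 (SE 0.18) without overlap, while its other probe gave 0.06 (SE 0.28). Smco3, of unknown function, was at -2.09, -1.85 and -2.14 against -0.94, -1.32 and -0.85, and here both probes fell, by 0.99 (SE 0.18) and 1.06 (SE 0.15). Usp45, a deubiquitinase, fell by 1.06 (SE 0.44) with nearly touching groups, the highest IF1-TG array at -0.22 and CRL replicate 2 at -0.18. The remaining decreases lay between -1.15 and -1.04. Of the 24 ranked genes, 8 kept their call in each of 21 alternative fits, namely Ino80b, Gm4419, A230006K03Rik, Ptgr1, Pdyn, Olfm3, Smco3 and 4932443I19Rik, and 16 lost it in at least 1. Of these 8, Ptgr1, Olfm3, A230006K03Rik, 4932443I19Rik and Pdyn had all arrays labelled IF1-KO beyond every CRL array on the IF1-TG side. Those arrays held -3.78 to -2.79 for Ptgr1, -0.87 to -0.65 for Olfm3 and -2.59 to -2.01 for A230006K03Rik. For 4932443I19Rik they held -3.75 to -3.30, next to the lowest CRL array at -3.29.

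**Figure D2:**
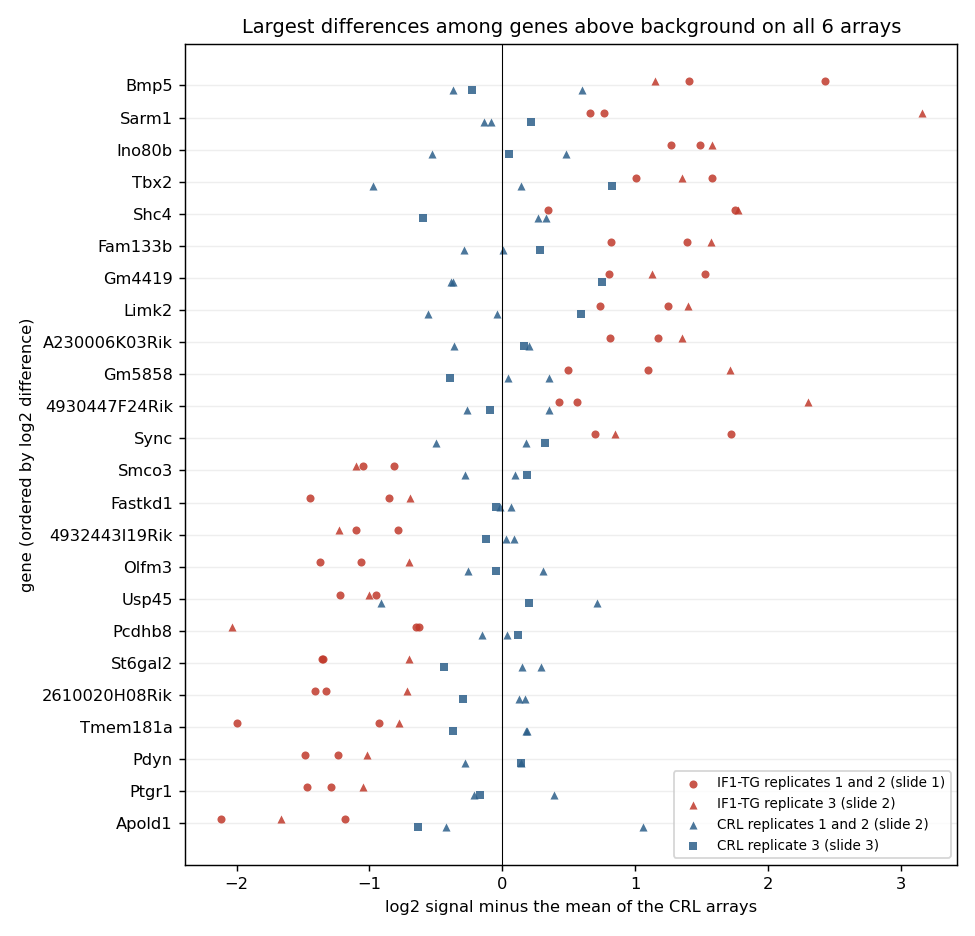
Log2 signal on each array minus the mean of the CRL arrays (horizontal axis) for the 12 largest increases and 12 largest decreases among genes well above background on all 6 arrays (vertical axis). Red marks are IF1-TG arrays and blue marks CRL arrays, shaped by slide. Groups that did not overlap were a condition of the ranking, so every gene shown separates. Sarm1 lies farthest from the CRL arrays on IF1-TG replicate 3.

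When dim genes were ranked too, with the same conditions and a name matched to RefSeq, the top of both lists changed, and several of these values set a measured group against spots near background. Speer4cos, of a multicopy family expressed in testis whose members can share signal, was highest with -4.40, -4.60 and -4.06 in IF1-TG mice against -6.74, -7.41 and -5.77 in CRL mice, a log2 difference of 2.29 (SE 0.38), but only 1 of the 3 CRL arrays was well above background and the difference was 0.90 under normexp with quantile normalization. Nlrp5, an oocyte gene, gave 1.62 (SE 0.43) and the T cell receptor segment Trav6-3 gave 1.29 (SE 0.33), each with 2 CRL arrays well above background. Under normexp with quantile normalization these were 0.52 and 0.33 and not called. D830026I12Rik was well above background on 1 IF1-TG and 1 CRL array, and Mllt4 (Afdn, the junction protein afadin) on 3 and 1, so that their values of 1.24 and 1.17 rest on spots near background, and they were 0.29 and 0.37, not called, under the same setting. Of the 12 largest decreases, 9 were well above background on no IF1-TG array, and for Lypd3, Olfr412, Defb22 and 5830416I19Rik only a bound between 1.03-fold and 1.17-fold lower could be set. For AY358078, Cfc1 and Ifitm5 no bound above 1 was obtained. Dgat2l6, an acyltransferase family member that was well above background on 1 IF1-TG array, gave -1.68 (SE 0.46), and -0.41 without a call under normexp with quantile normalization.

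The lowest fitted differences of this ranking were those of Gh and Prl, the growth hormone and prolactin genes of the anterior pituitary, for which only a bound can be given. Gh was not well above background on any IF1-TG array (-8.87, -9.12 and -8.49) and was at -4.13, -4.69 and -6.85 on the CRL arrays, at least 2.44-fold lower in IF1-TG mice. Prl was likewise not well above background at -8.79, -8.65 and -8.03 and was at -3.78, -4.88 and -6.44 in CRL mice, at least 2.79-fold lower. Both genes gave the CRL arrays the same order, with CRL replicate 3 lowest. The arrays labelled IF1-KO were low too, from -9.33 to -8.40 for Gh and from -8.05 to -7.19 for Prl, so the CRL arrays were the ones that stood apart. Under normexp with quantile normalization the log2 differences were smaller, -1.11 for Gh and -1.05 for Prl, and still called. Of the 12 listed pituitary genes, 8 were measured, and the 2 called were Gh and Prl, which passed the filter only through the CRL arrays, so their count is not read against that of all genes. With probes above background on all 9 arrays, 5 of the list were kept and 0 called. Cga, Fshb, Tshb and Pou1f1 did not pass the filter. Pomc, Lhb, Ghrhr, Chgb and Pcsk1n were measured and not called, with log2 differences from -0.11 to 0.31. Gh and Prl are the best known targets of the pituitary factor Pit-1 (Pou1f1), and the sequence before the Prl start is shown for the letters TATNCAT, the core of the sites this factor binds, with matches on either strand in capitals (RefSeq, GRCm38.p6, plus strand, chr13:27057320-27057569, 250 bases before the start).
Prl: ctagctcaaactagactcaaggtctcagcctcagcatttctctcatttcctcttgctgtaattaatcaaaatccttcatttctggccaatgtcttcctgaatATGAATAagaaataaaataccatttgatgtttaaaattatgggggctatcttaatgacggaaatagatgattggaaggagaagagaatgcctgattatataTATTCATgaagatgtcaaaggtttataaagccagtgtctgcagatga
The window held 2 matches, at bases -148 to -142 and -47 to -41 from the start, while 7.92% of the 32851 RefSeq windows of this length hold at least 1.

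Genes with more than 1 kept probe allow a call to be read again, although probes of a gene can overlap. Of the 135 called genes with more than 1 kept probe, 16 had another probe called in the same direction and 59 had another probe of the opposite sign. The second probes were also called for Gabra2 (1.12 beside 0.93), Map1b (0.77 beside 0.84), the potassium channel gene Kcnq1 (0.73 beside 1.11), the histone gene Hist1h4d (0.71 beside 0.72), Entpd4 (-0.66 at both) and the neuropeptide Y receptor gene Npy2r (-1.17 beside -0.84). The paired probes of Gabra2 overlap in position, as do those of Kcnq1, so these are not readings at separate places of the transcript. The choice of these genes was made with their values in view. Stk38l, a kinase of the NDR family, shows how far probes of a gene can part. One of its probes, annotated on chromosome 1, gave a log2 difference of 2.49 (SE 0.19) and was the only probe of any gene to pass adjustment (limma, Benjamini-Hochberg adjusted P = 0.0164). The brightest probe, on chromosome 6 where the others of the gene lie, gave 0.49 (SE 0.14) and the third 0.32 (SE 0.12), neither of them called.

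Gabra2, the α2 subunit of GABA-A receptors, the main inhibitory receptors of the brain, was called higher in IF1-TG mice. Its signal (mm9, chromosome 5, 71352306 to 71352365) was 0.34, 0.68 and 0.72 in IF1-TG mice and -0.09, -0.45 and -0.51 in CRL mice. The groups did not overlap, the log2 difference was 0.93 (SE 0.20, limma unadjusted P = 0.00145), and within slide 2 it was 0.99. The arrays labelled IF1-KO, at -0.27, -0.87 and -0.33, lay with the CRL arrays. Its neighbours on chromosome 5 were read as a group, since the level of Gabra2 is known to differ between C57BL/6J and other mouse strains. Of the 11 measured genes of this cluster, 1 was called higher and 1 lower, 18.2% against 4.31% of all genes, and the median was -0.07. The called genes were Gabra2, for which the cluster was read, and Cox7b2, which did not pass the filter through the IF1-TG arrays. The share is therefore not read as a result about the cluster. With probes above background on all 9 arrays, 9 of its genes were kept, 1 called higher and 0 lower. Gabra4, Gabrb1 and Gabrg1, which code for other subunits of the same receptors, gave -0.26 (SE 0.22), 0.05 (SE 0.14) and -0.05 (SE 0.15), and the other probe of Gabrg1 gave -0.44 (SE 0.16) and was not called. Commd8 gave 0.50 (SE 0.23) at its brightest probe and -0.18 (SE 0.11) at the other.

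Cox7b2, the testis form of a cytochrome c oxidase subunit and also in this cluster, changed the opposite way. Its signal was -6.06, -4.65 and -5.50 in IF1-TG mice, with 2 of the 3 arrays well above background, and -3.73, -3.96 and -3.47 in CRL mice, a log2 difference of -1.68 (SE 0.32). The arrays labelled IF1-KO, from -3.70 to -3.39, again lay with the CRL arrays. Gnpda2, Guf1, Kctd8, Atp10d and Corin, the other measured genes of the cluster, gave values from -0.47 to -0.03 and were not called.

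Of 17 measured genes known to vary between mouse strains or substrains, 3 were called higher and 1 lower (23.5%, against 4.31% of all genes), and their median was 0.04. This list was chosen with earlier results of these data known, so its share is a description and not an independent result. Gabra2, described above and counted in the chromosome 5 cluster too, was 1 of the 3. Ide, the insulin-degrading enzyme, was at 0.56, 0.29 and 0.43 in IF1-TG mice and -0.11, -0.24 and -0.40 in CRL mice, a log2 difference of 0.68 (SE 0.12) without overlap. Fgfbp3, its close neighbour on chromosome 19 and part of the same segment that varies in copy number among C57BL/6J mice, rose by 0.60 (SE 0.24), with CRL replicate 3 at -0.59 above IF1-TG replicate 2 at -0.64, and its call was lost in 6 of 21 alternatives. Entpd4, a nucleotide hydrolase of the Golgi and lysosome, was at 2.98, 2.35 and 2.57 against 3.42, 3.16 and 3.31 and fell by 0.66 (SE 0.17). The arrays labelled IF1-KO lay within the CRL range for Ide (-0.36 to -0.28) and above every CRL array for Entpd4 (3.50 to 3.58). Nnt, the mitochondrial transhydrogenase disrupted in C57BL/6J mice, gave -0.30 (SE 0.19) and was not called.

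The Camk2a-tTA transgene is known to have inserted on chromosome 12 with loss of a segment that holds Vipr2, Wdr60, Esyt2, Ncapg2 and Ptprn2. None of these 5 genes was called, and their differences were -0.12 (SE 0.83), -0.29 (SE 0.28), -0.49 (SE 0.26), -0.28 (SE 0.32) and 0.28 (SE 0.24) in that order. Vipr2 varied most between animals of a genotype, with -6.05, -2.08 and -4.32 in IF1-TG mice. Over the 537 windows of 5 Mb that hold a tested gene, 62 had at least 4 called genes, and none reached a called share of 25%. The windows next to this limit were led by chromosome 18 from 40 to 45 Mb (23.1% of 26 genes) and by chromosome 19 from 35 to 40 Mb (20.9% of 43 genes), which holds Ide and Fgfbp3. By chromosome, the called share of the 19 autosomes and the X chromosome ranged from 3.4% to 5.3%.

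The dentate gyrus list had the lowest median of the 54 gene lists, which is given as a description with no test. Of the 22 measured genes of the list, 3 were called lower and 0 higher (13.6% called, against 4.31% of all genes), and the median log2 difference was -0.36, beside -0.000568 for all genes. The count of calls moved with single arrays, to 1 lower without IF1-TG replicate 1 and to 7 lower and 1 higher without IF1-TG replicate 2. In 16 of the 22 the difference was negative, against 50.1% of all genes, and 7 had IF1-TG arrays entirely below the CRL arrays, as had 5.15% of all genes. The median stayed between -0.47 and -0.23 under every alternative fit, scaling and omission of an array, and was -0.40 within slide 2. The mean over the list was lower on each IF1-TG array (-0.34, -0.22 and -0.27) than on any CRL array (0.03, -0.11 and 0.08).

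Pdyn, a neuropeptide gene of granule neurons, was at 0.37, 0.12 and 0.59 in IF1-TG mice and at 1.75, 1.33 and 1.75 in CRL mice. Its log2 difference was -1.25 (SE 0.27, limma unadjusted P = 0.00141), and the arrays labelled IF1-KO, at -0.12, 0.90 and 0.69, also lay below the CRL arrays. Trpc6, a calcium-permeable channel, was at -1.62, -0.46 and -0.66 against 0.16, -0.26 and -0.23, a log2 difference of -0.80 (SE 0.30). Npnt, the extracellular matrix protein nephronectin, was at -5.53, -4.98 and -5.27 against -4.80, -4.45 and -4.72, a log2 difference of -0.60 (SE 0.19), and its other probe gave -0.23 (SE 0.21). Pdyn kept its call in each of 21 alternatives, while Trpc6 lost it in 5 and Npnt in 6, among them the fits without IF1-TG replicate 1, where the differences were -0.45 and -0.47.

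Of the members that were not called, Stxbp6, a regulator of vesicle fusion, gave -0.50 (SE 0.18), and Prox1, the transcription factor that defines granule neurons, gave -0.39 (SE 0.23), both without overlap of the groups. C1ql2 and C1ql3, synaptic organizers of the mossy fibre pathway, gave -0.85 (SE 0.45) and -0.51 (SE 0.23). Calb1, the calcium-binding protein calbindin, gave -0.50 (SE 0.45), and Penk, the enkephalin precursor, -0.72 (SE 0.52). Marcks and Cald1, which bind actin, had positive values of 0.42 (SE 0.21) and 0.44 (SE 0.24). Trpc6 was lowest on IF1-TG replicate 1, which also had the highest choroid plexus level and the lowest C1ql2 and Calb1 values of the group. Without that array and CRL replicate 2, the median of the list was -0.33. The striatum list, which shares Penk with it, had a median of -0.31, the second lowest of the 54 lists, and its part in the dentate values was not tested.

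**Figure D3:**
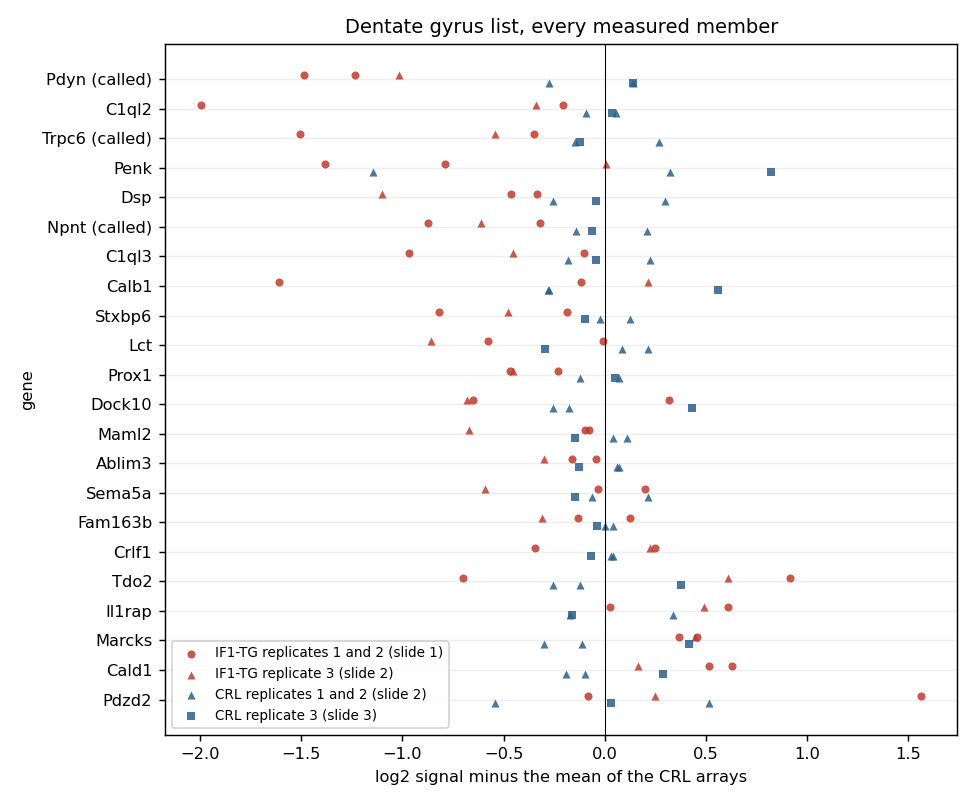
Log2 signal on each array minus the mean of the CRL arrays (horizontal axis) for the 22 measured genes of the dentate gyrus list (vertical axis, from lowest to highest difference). Red marks are IF1-TG arrays and blue marks CRL arrays, shaped by slide, and Pdyn, Trpc6 and Npnt are the 3 genes called.

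The sequences before the starts of the 3 called dentate genes were searched for TGACG on both strands, the core of the site bound by the activity-dependent factor CREB, and are shown because they belong to the 3 genes called in this list (RefSeq, GRCm38.p6, 250 bases before the start, matches in capitals). Pdyn and Npnt each have 2 listed starts, of which the one farther upstream is shown. The windows are chr2:129699939-129700188 on the minus strand for Pdyn, chr9:8543892-8544141 on the plus strand for Trpc6 and chr3:132950292-132950541 on the minus strand for Npnt.
Pdyn: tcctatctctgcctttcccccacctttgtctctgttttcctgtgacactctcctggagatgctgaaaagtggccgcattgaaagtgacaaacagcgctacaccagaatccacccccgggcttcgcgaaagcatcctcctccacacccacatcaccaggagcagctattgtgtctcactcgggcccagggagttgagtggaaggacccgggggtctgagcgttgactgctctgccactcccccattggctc
Trpc6: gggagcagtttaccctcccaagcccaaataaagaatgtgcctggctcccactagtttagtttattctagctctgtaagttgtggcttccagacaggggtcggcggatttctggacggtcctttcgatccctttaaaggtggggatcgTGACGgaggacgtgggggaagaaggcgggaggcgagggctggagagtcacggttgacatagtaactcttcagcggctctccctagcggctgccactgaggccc
Npnt: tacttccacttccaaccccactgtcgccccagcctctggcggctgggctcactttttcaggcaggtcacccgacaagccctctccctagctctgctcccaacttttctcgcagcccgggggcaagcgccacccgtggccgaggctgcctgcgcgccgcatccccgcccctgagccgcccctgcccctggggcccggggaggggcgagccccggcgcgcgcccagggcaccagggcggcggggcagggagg
Trpc6 held 1 match, at bases -103 to -99, and the windows of Pdyn and Npnt printed here held none. The other Npnt window, which is not printed, held 1, at bases -28 to -24 from its start, and the other Pdyn window held none, while 17.8% of all windows hold at least 1.

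Genes of energy metabolism, on which IF1 acts through the ATP synthase, had list medians near that of all genes, of which 4.31% were called. IF1-TG arrays lay entirely above the CRL arrays in 4 of 21 ATP synthase, 6 of 41 complex I and 6 of 33 glycolysis genes. They lay entirely below in 0 of each, against 6.6% above and 5.15% below among all genes. In the mitochondrial ribosome list 5 of 75 genes lay above and 4 below. Of 21 measured ATP synthase genes 0 were called, 11 had a positive difference, and the median was 0.04, which turned to -0.02 under normexp with quantile normalization. Of 41 complex I genes 2 were called higher and 0 lower (4.88%, near the share of all genes), with a median of 0.03 that turned to -0.01 under the same setting. Ndufs8, an iron-sulfur subunit of the complex, was at 2.82, 2.94 and 2.71 in IF1-TG mice and 1.87, 1.92 and 2.55 in CRL mice and rose by 0.71 (SE 0.21). Ndufa13, a membrane-arm subunit, was at 6.999, 6.77 and 6.88 against 6.13, 6.21 and 6.46 and rose by 0.61 (SE 0.14). Neither gene's groups overlapped, and the call of Ndufa13 was lost in 5 of 21 alternatives, among them both quantile normalizations. Of 40 measured genes of complexes II to IV, Cox7b2 was the 1 called, and the median was 0.00442, with a negative sign under each other scaling.

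Of 31 genes of mitochondrial dynamics and biogenesis, 1 was called, Phb, the inner membrane scaffold prohibitin, and the median was -0.07. Phb was low on the slide 1 arrays (1.35 and 1.43), while within slide 2 IF1-TG replicate 3 at 2.21 lay next to CRL replicates 1 and 2 at 2.58 and 2.23, and its other probe gave 0.06 (SE 0.27). Of 75 measured mitochondrial ribosome genes, Mrps36 alone was called (-0.70, SE 0.20, with 0.19 at the other probe), and the median was -0.02. Both probes named for Mrps36 are annotated on chromosome 17. Of 35 antioxidant enzyme genes 0 were called, with a median of 0.04 that turned to -0.04 under normexp with quantile normalization. Of 33 genes of glycolysis and lactate handling 1 was called, Pgam1, a glycolytic mutase (-0.65, SE 0.25), for which the spot of IF1-TG replicate 2 was an outlier and was left out. The difference was -0.15 within slide 2, and the call was lost in 6 of 21 alternatives, among them the fits without IF1-TG replicate 1 (-0.22) and with slide as a fixed block (-0.15). The median of this list was 0.00595, negative under each other scaling.

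The AMPK and mTOR list, the kinases that sense cellular energy and amino acids, had 2 of 27 genes called higher and 0 lower (7.41%, against 4.31% of all genes), with a median of 0.05 and -0.13 within slide 2. Rictor, the defining subunit of mTOR complex 2, was at 0.26, -0.36 and 0.23 in IF1-TG mice and -1.06, -1.38 and -0.43 in CRL mice, a log2 difference of 1.00 (SE 0.26), with groups that nearly touched. The arrays labelled IF1-KO, from -0.23 to -0.10, lay with the IF1-TG arrays. Rps6kb1, the S6 kinase that mTOR complex 1 activates, gave 0.86 (SE 0.35) with overlapping groups, and its other probes gave -0.00444 and 0.45. Its call was lost in 9 of 21 alternatives.

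**Figure D4:**
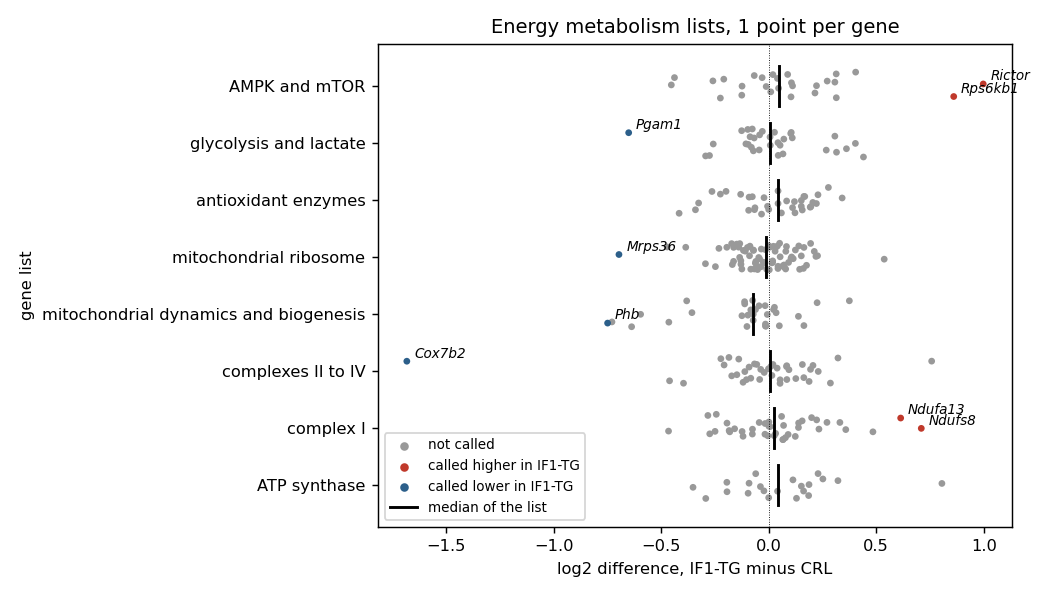
Log2 difference of IF1-TG minus CRL (horizontal axis) for each measured gene of the 8 energy metabolism lists (vertical axis), 1 point per gene, with a black bar at the median of the list. The medians lie between -0.07 and 0.05, and the few called genes, in red and blue, stand outside the bulk of their lists.

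Over the 28 lists of neurotransmission, signaling, cytoskeleton, housekeeping and immune genes, the called share ranged from 0% to 7.32%, the medians from -0.29 to 0.15, and in 10 lists no gene was called. The highest share was that of the interferon response list, with 3 of 41 genes higher and 0 lower, against 4.31% called among all genes. The 3 genes were Oas1a, which makes the 2-5A messenger of antiviral defence (0.86, SE 0.25), Psmb8, a subunit of the immunoproteasome (0.64, SE 0.22), and the chemokine gene Ccl5 (0.73, SE 0.29). The other probe of Oas1a gave 0.13 (SE 0.29), and the calls of Oas1a, Psmb8 and Ccl5 were lost in 3, 5 and 7 of 21 alternatives. All had groups that did not overlap, whereas Ifit3 and Rsad2, other interferon-induced genes, had log2 differences of -0.014 (SE 0.34) and -0.11 (SE 0.28). The lowest median was that of the immediate early genes, transcribed within minutes of neuronal activity, of which 0 of 36 were called, with a value of -0.29, and their mean was most unlike between 2 arrays, at -0.64 on IF1-TG replicate 1 and 0.52 on CRL replicate 2. The highest median, 0.15, was that of calcium channels, pumps and exchangers, of which 0 of 39 were called. In this list 9 genes had IF1-TG arrays entirely above the CRL arrays, as had 6.6% of all genes, and 1 entirely below. The cytosolic ribosome list had 16 of 75 genes above and 1 below, with 0 called. Calcium and cAMP dependent kinases and phosphatases had 9 of 47 above and 0 below, with 3 called higher. Splicing factors and RNA binding genes had 1 of 51 above and 7 below, as had 5.15% of all genes.

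Single neuronal genes of these lists were picked with their values in view, because their calls held under every alternative in which they were measured. Map1b, a microtubule-associated protein of growing axons, was at 0.88, 0.58 and 0.96 in IF1-TG mice and -0.33, -0.11 and 0.34 in CRL mice, a log2 difference of 0.84 (SE 0.19). The arrays labelled IF1-KO, at 0.68, 0.35 and 0.51, also lay above every CRL array, replicate 2 only just. Pde1a, a calmodulin-dependent phosphodiesterase, was at 2.15, 2.47 and 2.50 against 1.83, 1.54 and 1.41, a log2 difference of 0.78 (SE 0.20). Prkce, protein kinase C epsilon, gave 0.77 (SE 0.24), with IF1-TG replicate 2 at -1.04 next to CRL replicate 2 at -1.10. Grid1, the delta-1 glutamate receptor, was at -2.07, -2.21 and -2.12 against -1.52, -1.25 and -1.27 and fell by 0.79 (SE 0.15). The probe named for Actr3, a subunit of the actin-nucleating Arp2/3 complex, is annotated on the X chromosome and fell by 1.04 (SE 0.20), with 2.93, 2.87 and 3.40 in IF1-TG mice and 4.26 and 3.95 in the CRL mice whose spots could be used.

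Marker lists of other cell types had medians between -0.17 and 0.01 and called shares of 0% to 5.88%, against 4.31% of all genes. Of the oligodendrocyte (28 genes), oligodendrocyte precursor (10), astrocyte (25) and endothelial and pericyte (25) lists 0 genes were called, with medians of 0.01, -0.17, -0.03 and -0.09. Of 28 microglia genes, Sall1, a transcription factor of resting microglia, was called lower (-0.63, SE 0.27) with overlapping groups, IF1-TG replicate 2 at -2.14 lying above CRL replicate 3 at -2.27. This call was lost in 14 of 21 alternatives, and the median of the list was -0.05. The CA1 and CA2 list (19 genes) and the CA3 list (19 genes) had 0 called and medians of -0.10 and -0.05. Of 34 interneuron and neuropeptide genes, Pdyn and Npy2r were called lower, and the median was -0.17 but 0.04 within slide 2. Npy2r, the presynaptic neuropeptide Y receptor, was low on the slide 1 arrays (-1.11 and -1.23), while IF1-TG replicate 3, at -0.04, lay among the CRL arrays at 0.23, -0.10 and 0.02. Its other probe went lower on all 3 IF1-TG arrays than on any CRL array, with a log2 difference of -1.17 (SE 0.21) and -0.99 within slide 2.

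For regions next to the hippocampus, list levels differed between single animals. In the striatum list the IF1-TG arrays stood at -0.44, -0.36 and -0.27 and the CRL arrays ranged from -0.32 to 0.46, so that the groups overlapped. Its median of -0.31 was negative under each alternative and -0.05 within slide 2, 5 of its 21 genes had a positive difference, and 3 had IF1-TG arrays entirely below the CRL arrays, against 5.15% of all genes. Without CRL replicate 2, 5 genes were called lower, but with all arrays the 1 called gene (4.76%, against 4.31% of all genes), Adora2a, the adenosine receptor of striatal neurons, was -0.96 (SE 0.41) over all arrays and -0.0021 within slide 2, and its call was lost in 11 of 21 alternatives. In the thalamus list IF1-TG replicate 2 stood at 0.77 with the other 5 arrays between -0.18 and 0.04, while the called gene Lef1 was highest on IF1-TG replicate 1. Lef1 was at 0.49, 0.10 and -0.34 in IF1-TG mice and -0.84, -0.04 and -0.90 in CRL mice, a log2 difference of 0.68 (SE 0.27) with overlapping groups, 0.099 within slide 2, and its call was lost in 7 of 21 alternatives. The choroid plexus and ependyma list had a median of 0.34 and 0 of 24 genes called, and -1.56 within slide 2, where CRL replicate 2 was the array with high values. In the neocortex and subiculum list 0 of 29 genes and in the blood list 0 of 12 were called, with medians of -0.05 and -0.14. On CRL replicate 2 the blood list stood 1.66 above the CRL mean, and without that array 5 blood genes were called higher and the median was 0.42.

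**Figure D5:**
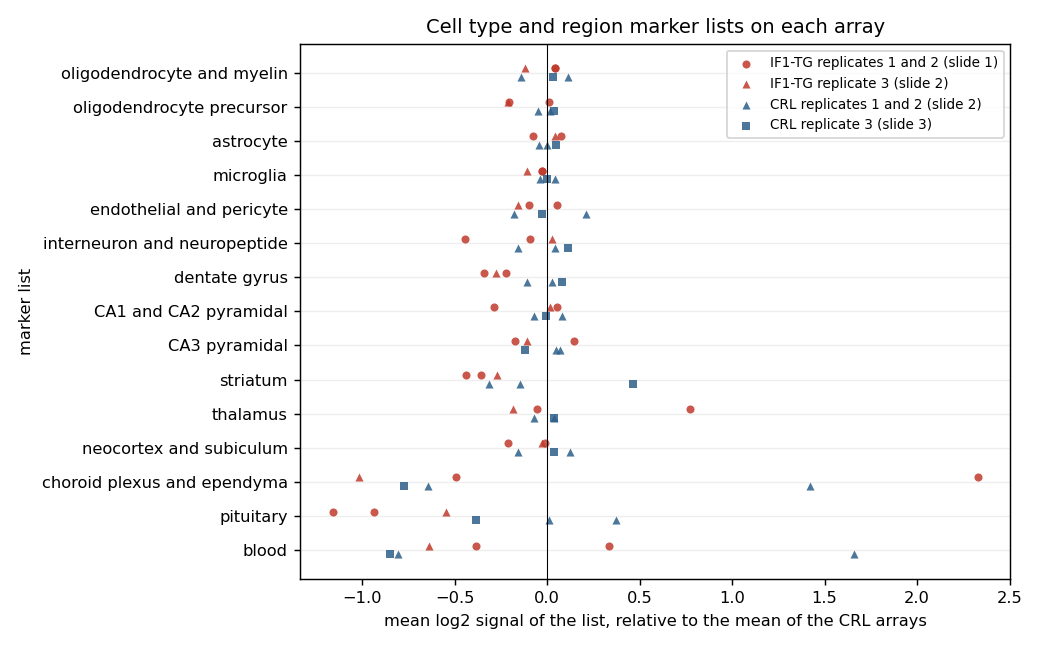
Mean log2 signal of each cell type or region list on each array relative to the mean of the CRL arrays (horizontal axis), with 1 line per list (vertical axis), red for IF1-TG arrays and blue for CRL arrays, shaped by slide. The dentate gyrus list is lower on all 3 IF1-TG arrays than on any CRL array, and the choroid plexus list is high on IF1-TG replicate 1 and CRL replicate 2.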

How the data were processed

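Total hippocampal RNA of 9 mice was hybridized to 1-colour Agilent mouse gene arrays. As deposited, the intensity of a spot is the output of Feature Extraction after subtraction of background within the array, with no scaling between arrays by the authors. Marks deposited beside each intensity (outlier, saturation, clearly above background) were taken over unchanged, and the uncorrected mean and local background intensities entered an alternative. Positions of probes refer to mm9, as annotated by the authors.

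Log2 intensities were scaled by subtracting each array's 75th percentile. Spots marked as outliers (1401) and control spots were excluded, 0 spots were saturated, and repeated spots of a probe were averaged. The filter required a probe to be well above background on the 3 arrays of some genotype. Of 21907 gene names, 17093 matched a RefSeq symbol or synonym. The number of arrays limits the precision.

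All 9 arrays entered 1 limma fit (version 3.58.1, R 4.3.3) with genotype as the only term, so that the 3 genotypes share an estimate of the spread, and IF1-TG was compared with CRL. Benjamini-Hochberg adjustment ran over all kept probes. Errors are standard errors of the fit with 3 arrays per genotype. A bound ("at least") is the mean of the brighter genotype over the higher of the dim probe's own value and the lowest signal well above background of each array of the other. The steps were tested on simulated data.

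The members and gene lists were chosen with earlier results of these data known. Named are Atpif1, the 12 largest increases and 12 largest decreases among called genes with matched names, groups that did not overlap and a fold of 1.5 in the same direction within slide 2, called members of the lists described singly, every member of the chromosome 5 and chromosome 12 lists, and genes said to be named after their values were seen. The alternatives were other normalizations, filters, slide and replicate blocks, eBayes options, probe choices and leaving out each array. Promoter sequences are from RefSeq (GRCm38.p6), read only as sequence; 1 or more windows were listed for each gene shown, and none was used here for Gh. Some members of the lists are counted but not reported here by name.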

Additional observations from a re-analysis of the deposited data

How the results depend on the processing

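The count of called genes was 945 with the settings reported and moved most with the filter on dim probes: 3681 genes without a filter, of which 81.6% were higher in IF1-TG mice, and 682 with probes above background on all 9 arrays, of which 62.3% were higher. It was 439 genes with normexp and quantile normalization (58.8% higher against 48%; 345 of them among the 945), and 1588 with slide as a fixed block (447 among the 945), under which the slide 1 arrays carry no information on this contrast. Leaving out 1 array gave 757 to 1469 genes. After Benjamini-Hochberg adjustment in limma, 0 genes passed under every setting that kept all 9 arrays, except 1 when any probe of a gene counted (Stk38l). When 1 array was left out, 0 to 20 passed, with 20 without IF1-TG replicate 3, 5 without CRL replicate 3 and 1 without IF1-TG replicate 1. Without IF1-TG replicate 1 and CRL replicate 2 together, the arrays with the most choroid plexus signal, an alternative chosen after seeing the data, 992 genes were called and 1 passed adjustment. The causes were not tested. With the replicate number as a replicate block, 900 genes were called and 0 passed adjustment. Same-numbered IF1-TG and CRL arrays deviated from their group means with correlations of -0.10, -0.11 and -0.07. IF1-TG replicates 1, 2 and 3 correlated best with CRL replicates 2, 3 and 1, at 0.20, 0.19 and 0.20, and the remaining pairs were negative, down to -0.12. Deviations within a group cancel out over its arrays, so these values depend on one another and cannot decide whether the numbers pair the mice.

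Of 99 genes followed through the alternatives, 83 were called, and none of these changed sign. 20 of the 83 stayed called in each alternative in which they were measured, Atpif1 not being among them, and 63 lost the call in at least 1, 36 of them with slide as a fixed block and 27 with normexp and quantile normalization. The medians of most energy lists crossed 0 under other settings, while the medians of the dentate gyrus, striatum, microglia, oligodendrocyte precursor, CA1 and CA2, chromosome 5 cluster and mitochondrial dynamics lists remained negative in all. Signal over background limits the dim end, where 145 of the genes called lower had a bound in place of a level.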
